A study of Mus musculus with 8 samples.

Results

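The 37 genes described here are the glycolysis and hypoxia-induced genes: glucose and lactate transporters, the enzymes that split glucose to lactate, the switches that set that flow, and genes that cells raise when oxygen is short. They were listed by symbol for their known roles and found as the non-control probes whose accession maps to one of them; the rule used no measured value. All 37 had a probe (61 probes in all), among 20886 named genes on the array, and 26 of the 37 were well above background in both colours on all 8 arrays.

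The samples were 3T3-L1, a mouse embryonic fibroblast line used as a pre-adipocyte, and RAW 264.7, a mouse macrophage line. Both had been grown together for 48 h in transwells, which separate the lines by a porous membrane, and no array here holds cells grown alone. The methods describe separate set-ups with different cell numbers: RAW 264.7 in the insert over 3T3-L1, and 3T3-L1 in the insert over RAW 264.7. RNA was taken from the lower well of each. Each line had 1 array without treatment, 1 with cortisol (100 µM), 1 with serotonin (100 µM) and 1 with both hormones, for which the labels give 100 µM of each. The Cy5 channel held the cells and the Cy3 channel a common reference, described by the labels as RNA of all samples in equal parts and by the methods as pooled cRNA of untreated cells of both lines grown alone. A level below is the log2 ratio of Cy5 over Cy3, so 0 means equal to the reference, and levels of different genes cannot be ranked against each other. The 4 values of a line are always given in the order untreated, cortisol, serotonin, cortisol-serotonin.

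When oxygen is plentiful, prolyl hydroxylases mark the hypoxia-inducible factors for destruction, and when it is short these factors accumulate, pair with Arnt and raise genes of glucose uptake, glycolysis, lactate export, blood vessel growth and collagen modification. Activated macrophages are known for a high rate of glycolysis with normal oxygen as well. Fibroblasts and pre-adipocytes secrete collagen, whose prolines and lysines are hydroxylated by P4ha and Plod enzymes, and these too are classical hypoxia-induced genes.

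The RefSeq table of gene starts (build GRCm38.p6, 300 bases around each start, most of them before it) held 34 of the 37 genes; Ndrg1, Plod2 and Epas1 were not matched. The factors bind a core written ACGTG or GCGTG, searched on both strands. A CACGTG palindrome, which is also the E-box of other factors, counts once on each strand. The core occurred in 40 of 51 member promoters (78.4%) and in 43.8% of all 32851 promoters of that length; by gene, 31 of 34 members and 46.7% of all genes held it in at least 1 promoter. The members were listed for known roles, several as targets of these factors, so the share is a description. Shown are the promoters of the lactate exporter gene Slc16a3, the collagen-modifying gene P4ha2 and the lactate-forming gene Ldha, the first 2 because they differed most between the lines among the genes with a promoter here and the third because it holds the core most often of the 3; capitals mark each match.
Slc16a3 promoter, chr11:120948817-120949116, plus strand: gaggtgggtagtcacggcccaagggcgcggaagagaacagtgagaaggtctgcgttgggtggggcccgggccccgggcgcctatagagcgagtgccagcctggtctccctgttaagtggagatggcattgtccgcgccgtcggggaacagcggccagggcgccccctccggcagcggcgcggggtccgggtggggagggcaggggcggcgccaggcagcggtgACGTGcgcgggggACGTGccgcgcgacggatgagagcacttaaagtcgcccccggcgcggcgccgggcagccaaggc
P4ha2 promoter, chr11:54100674-54100973, plus strand: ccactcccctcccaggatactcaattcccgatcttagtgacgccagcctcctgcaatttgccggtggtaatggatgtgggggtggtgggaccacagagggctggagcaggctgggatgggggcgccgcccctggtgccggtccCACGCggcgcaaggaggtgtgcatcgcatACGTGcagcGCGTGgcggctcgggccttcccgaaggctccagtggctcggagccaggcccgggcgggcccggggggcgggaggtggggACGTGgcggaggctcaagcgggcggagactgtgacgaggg
Ldha promoter, chr7:46845554-46845853, plus strand: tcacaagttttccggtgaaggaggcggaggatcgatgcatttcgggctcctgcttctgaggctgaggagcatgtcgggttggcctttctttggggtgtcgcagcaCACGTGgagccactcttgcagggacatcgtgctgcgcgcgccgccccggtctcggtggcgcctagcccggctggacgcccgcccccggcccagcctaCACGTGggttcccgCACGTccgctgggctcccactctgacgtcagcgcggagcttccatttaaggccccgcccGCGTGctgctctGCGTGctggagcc
The core thus occurred 2 times before Slc16a3, 4 times before P4ha2 and 7 times before Ldha, counting both strands. All 7 members that were at least 2-fold higher in 3T3-L1 held it, as did 3 of the 4 with a promoter row that were at least 2-fold lower.

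Some facts of the arrays bear on every value. Median Cy5 signals were 51 to 103 units over a median background of 26.5 to 28, 43.7 to 47.8% of spots were above background in both channels, and no spot was saturated. The 4 arrays of a line lay on 1 slide, and each treatment had the same position on both slides. Line, slide and co-culture set-up therefore cannot be told apart, nor can treatment and position. Of the macrophage markers, 10 of 10 measured were lower in 3T3-L1 (log2 differences of -6.19 for Fcer1g and -5.69 for Tyrobp), and 8 of 8 measured fibroblast and pre-adipocyte markers were higher (Fn1 by 9.31 and Col1a2 by 6.37); of 8 adipocyte markers 3 were measured, with Pparg higher by 4.56 and Fabp4 at -1.34 and Lpl at -1.48 in 3T3-L1. By the methods, the RNA of an array came from a well that held a single line, kept from the other by the membrane. Whether any cells of the other line were present was not tested.

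The hormone labels carry a doubt. Fkbp5, a glucocorticoid-induced gene, was at 0.14 on the 3T3-L1 array labelled cortisol against untreated, 1.31 on that labelled serotonin and 1.44 on that labelled cortisol-serotonin, and Zbtb16, another, at -0.19, 1.94 and 1.96. Tsc22d3 was at -1.06, 0.41 and 0.77. In RAW 264.7, 9 of 9 measured glucocorticoid targets were lower on the array labelled cortisol, and 8 of 9 were higher on that labelled serotonin. The arrays are therefore called by their labels throughout, and the comparison of the lines is also given without the 4 arrays labelled with a single hormone.

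The comparison of the lines asks how each cell type, while sharing medium with the other, sets its glucose and hypoxia programme. RAW 264.7 macrophages held the lactate exporter Slc16a3, the brain-type aldolase Aldoc, the hypoxia-induced stress gene Ndrg1 and the glycolysis accelerator Pfkfb3 at much higher levels, whereas 3T3-L1 pre-adipocytes held more of the collagen hydroxylase P4ha2, muscle-type phosphofructokinase Pfkm, mitochondrial Higd1a, Hk2, Vegfa and the factor Hif1a itself. Of the 26 members measured on all arrays, 17 were higher and 8 lower in 3T3-L1 at an adjusted p under 0.05, and Bnip3 did not pass. Differences were common among all 10995 genes measured, of which 38% were higher and 36.3% lower, so the size says more than the call: 7 members were higher and 5 lower by at least 2-fold, against 15.9% of all genes higher and 15.9% lower. The median difference of the members was 0.43 and that of all genes 0.04 on the log2 scale. With median centring in place of loess, 7 members were higher and 8 lower, and with the Cy5 channel alone 11 and 7; the median of all genes was then -0.14 in both settings. With the untreated and cortisol-serotonin arrays only, 17 of these 26 were higher and 6 lower. That fit also measured 5 members not counted among the 26, which brings it to 21 higher and 6 lower of 31. The share of all genes called is not given for these alternative settings, so their counts describe no trait of the members.

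**Figure D1:**
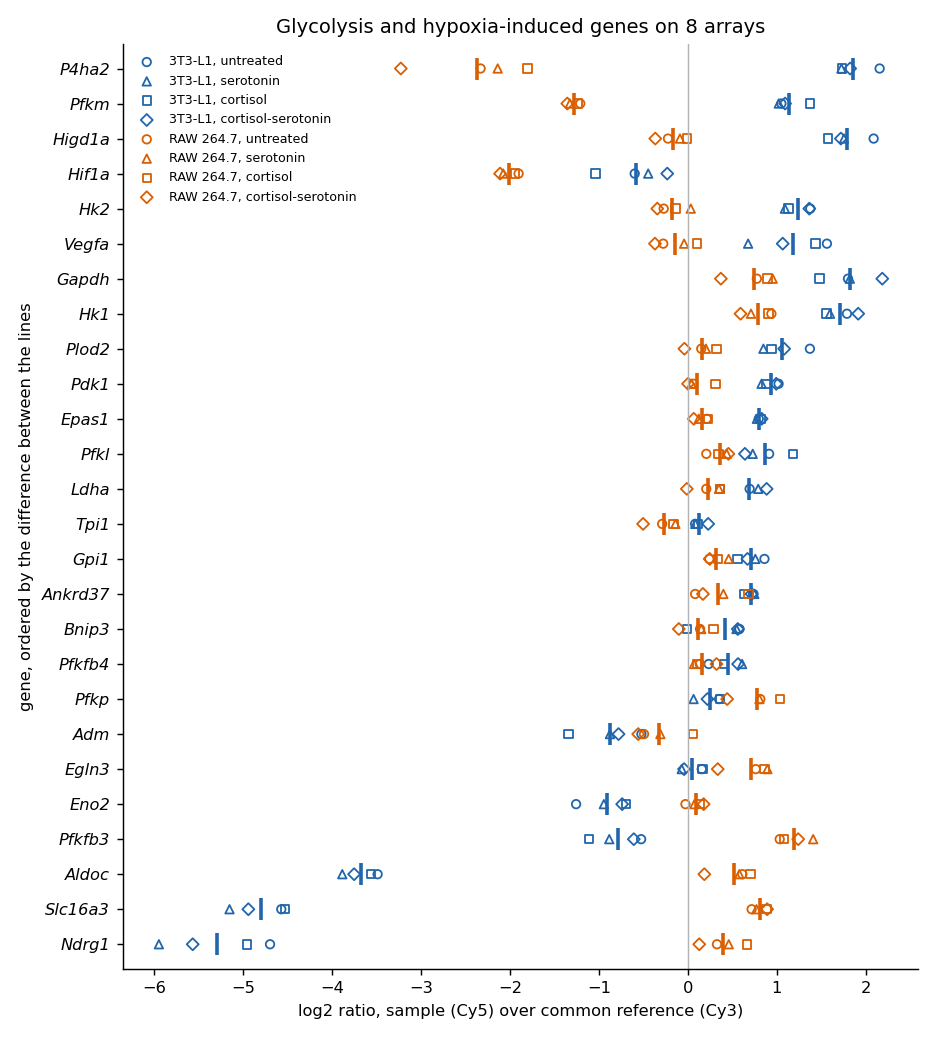
Log2 ratio of sample (Cy5) over common reference (Cy3) for the 26 genes measured on all 8 arrays, 1 symbol per array, with a vertical bar at the mean of each line; 3T3-L1 in blue, RAW 264.7 in orange. Ndrg1, Slc16a3 and Aldoc lie between -6 and -3 on all 3T3-L1 arrays and above 0 on all RAW 264.7 arrays, while P4ha2 and Pfkm show the opposite order.

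Slc16a3, which encodes the transporter MCT4 that carries lactate out of strongly glycolytic cells, read -4.57, -4.53, -5.15 and -4.94 on the 3T3-L1 arrays and 0.72, 0.88, 0.77 and 0.89 on the RAW 264.7 arrays. The lines did not overlap, and the difference was -5.61 ± 0.13 (SE, limma, adjusted p = 1.9e-10), or 49-fold lower in 3T3-L1. A second probe of Slc16a3, measured on 7 arrays, gave -5.002 ± 0.14. Of the other transport members, Slc2a1, the widespread glucose transporter GLUT1, had a spot marked as an outlier on 1 3T3-L1 array; the fit of its probe on the other 7 arrays gave 0.69 ± 0.15 (adjusted p = 0.0026). Slc16a1, the transporter MCT1, which moves lactate in both directions, was above background in both channels on 2 arrays and gave no comparison.

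Ndrg1, a gene named for its regulation by Myc and induced by hypoxia and differentiation, read -4.70, -4.96, -5.95 and -5.57 in 3T3-L1 and 0.33, 0.67, 0.46 and 0.13 in RAW 264.7. It differed more than any other member, by -5.69 ± 0.18 (adjusted p = 1.2e-09), or 51.5-fold. Its 3T3-L1 arrays spread by an SD of 0.57 around a mean of -5.29, against 0.23 around 0.39 in RAW 264.7.

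Among the glycolytic enzymes, 8 of the 11 measured were higher in 3T3-L1 and 3 lower. The phosphofructokinase members went opposite ways, while the members of each other isoform pair of glycolytic enzymes shared a direction. Of the hexokinases, which trap glucose in the cell, the hypoxia- and insulin-induced Hk2 read 1.38, 1.13, 1.09 and 1.36 in 3T3-L1 and -0.27, -0.14, 0.03 and -0.34 in RAW 264.7, a difference of 1.42 ± 0.13 (2.68-fold, adjusted p = 3.6e-06). The housekeeping form Hk1 was at 1.79, 1.56, 1.60 and 1.91 in 3T3-L1 and 0.94, 0.90, 0.71 and 0.59 in RAW 264.7, higher by 0.93 ± 0.13, which did not pass under median centring (adjusted p = 0.056). Hk3, the hexokinase of blood cells and no member, ran the other way at -3.47 ± 0.11.

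The phosphofructokinases commit sugar to glycolysis. Pfkm, the muscle form, read 1.05, 1.37, 1.02 and 1.09 in 3T3-L1 and -1.21, -1.23, -1.33 and -1.36 in RAW 264.7, so that the lines stood apart by 2.42 ± 0.11 (5.34-fold, adjusted p = 1.3e-08). The liver form Pfkl was at 0.91, 1.18, 0.73 and 0.64 against 0.21, 0.34, 0.44 and 0.45, higher in 3T3-L1 by 0.51 ± 0.13, and did not pass under median centring or in the Cy5 channel alone (0.15). The platelet form Pfkp was at 0.35, 0.36, 0.06 and 0.22 against 0.81, 1.04, 0.80 and 0.44, a difference of -0.53 ± 0.12, and did not pass in the Cy5 channel alone (-0.30, adjusted p = 0.20) or without the 4 arrays of a single hormone. The 3 forms therefore split, 2 higher in the pre-adipocytes and 1 higher in the macrophages. A second Pfkp probe was above background in Cy5 on RAW 264.7 arrays only.

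Aldolases cleave the 6-carbon sugar. Aldoc, the form known from brain, read -3.49, -3.57, -3.89 and -3.75 in 3T3-L1 and 0.61, 0.70, 0.58 and 0.18 in RAW 264.7, a difference of -4.19 ± 0.12 (18.3-fold lower in 3T3-L1, adjusted p = 4.8e-10). Aldoa, the muscle and general form, was marked as an outlier on the untreated 3T3-L1 array and read -0.26, -0.35 and -0.34 on the other 3 and 0.27, 0.39, 0.48 and -0.02 in RAW 264.7. The probe fit over 7 arrays gave -0.60 ± 0.14 for Aldoa (adjusted p = 0.0041), so both aldolases were lower in 3T3-L1.

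Enolases make phosphoenolpyruvate. The neuronal form Eno2 was at -1.26, -0.70, -0.95 and -0.74 in 3T3-L1 and -0.03, 0.14, 0.07 and 0.18 in RAW 264.7, lower in 3T3-L1 at the 2-fold mark itself, with an SE of 0.11 on the log2 scale (adjusted p = 1.4e-05). Eno1, the general form, had outlier marks on 2 of the 3T3-L1 arrays and read -0.25 and -0.20 on the other 2 against 0.28, 0.37, 0.32 and 0.29 in RAW 264.7. Its fit on 6 arrays gave -0.53 ± 0.16 (adjusted p = 0.018), so neither enolase was higher in 3T3-L1.

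Lactate dehydrogenase joins A and B subunits; the A form is known for making lactate and the B form for using it. Ldhb, above background on 3 of the 4 RAW 264.7 arrays, read 0.21, 0.76, 0.38 and 0.39 in 3T3-L1 and -3.79, -3.57, -3.83 and -3.81 in RAW 264.7. The probe fit on the 7 measured arrays put it 4.18 ± 0.13 higher in 3T3-L1 (18.1-fold, adjusted p = 3.6e-09). Ldha, whose promoter is shown above, was at 0.69, 0.36, 0.79 and 0.88 against 0.21, 0.36, 0.35 and -0.01, so its lines overlapped. Its difference was 0.46 ± 0.14 (limma, adjusted p = 0.014) and did not pass without the untreated or the cortisol-serotonin array of either line. Nor did it pass with scanner-processed signals, under median centring or in the Cy5 channel alone.

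**Figure D2:**
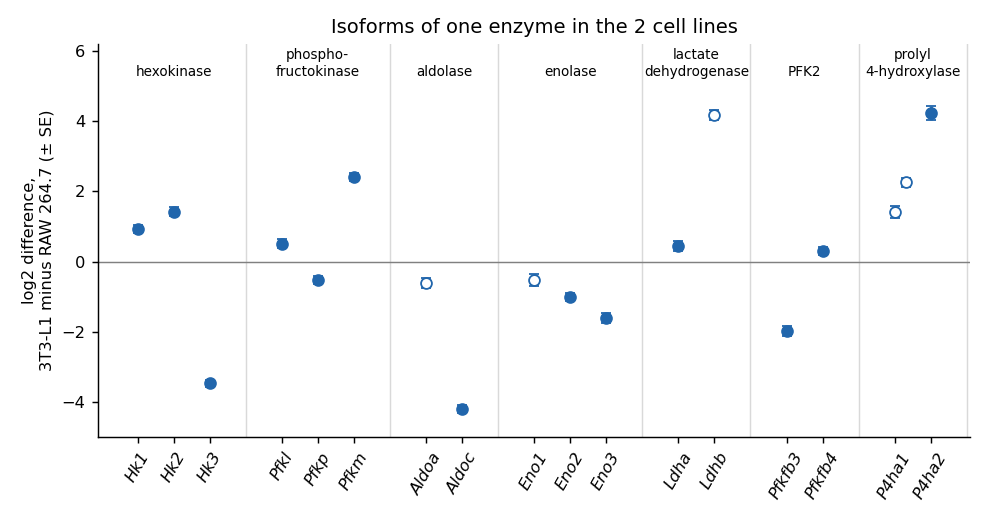
Log2 difference between the lines (3T3-L1 minus RAW 264.7, ± SE) for isoforms of 7 enzymes; filled points are genes measured on all 8 arrays, open points are single probes fitted on 6 or 7 arrays. Values above 0 are higher in 3T3-L1; Ldhb, P4ha2 and Pfkm lie highest, Aldoc and Hk3 lowest.

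Other enzymes of the middle of the pathway were measured by a single member each. Gapdh, which makes the first NADH of glycolysis, was at 1.80, 1.48, 1.82 and 2.18 in 3T3-L1 and 0.77, 0.89, 0.95 and 0.37 in RAW 264.7, higher by 1.07 ± 0.18 (2.10-fold, adjusted p = 0.00027). Gpi1, which turns glucose phosphate into fructose phosphate, and Tpi1, which balances the 2 triose phosphates, were higher by 0.39 ± 0.11 and 0.40 ± 0.12; both were below 0 in the Cy5 channel alone (-0.081 and -0.24). By probe on 7 arrays, Pgam1, a mutase, gave 0.55 ± 0.14 (adjusted p = 0.0058), and the ATP-forming kinase Pgk1 gave 0.14 ± 0.15 (adjusted p = 0.43), which did not pass. Gapdh and several of these enzymes have many near-identical pseudogenes in the mouse, and how far their probes share signal with such copies was not tested.

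The switches of the flow differed in kind. Pfkfb3, the hypoxia-induced enzyme that makes the activator of phosphofructokinase, read -0.53, -1.11, -0.88 and -0.61 in 3T3-L1 and 1.03, 1.08, 1.41 and 1.24 in RAW 264.7, a difference of -1.97 ± 0.14 (3.93-fold lower in 3T3-L1, adjusted p = 3.7e-07), with its 2 probes at -1.81 and -2.13. Its relative Pfkfb4 was at 0.23, 0.41, 0.61 and 0.56 against 0.13, 0.10, 0.07 and 0.32, which overlap, and its 0.30 ± 0.11 (adjusted p = 0.034) did not pass in 10 of the 17 alternatives and reached -0.14 in the Cy5 channel alone. Pdk1, which blocks pyruvate from entering mitochondria, was at 1.02, 0.88, 0.83 and 0.99 against 0.06, 0.31, 0.04 and 0.00, higher in 3T3-L1 by 0.83 ± 0.11, and did not pass under median centring (adjusted p = 0.12).

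Of the 4 factors and oxygen sensors, 3 were measured on all arrays, and 2 were higher and 1 lower in 3T3-L1. Hif1a, the oxygen-controlled subunit, read -0.60, -1.04, -0.45 and -0.23 in 3T3-L1 and -1.90, -1.94, -2.08 and -2.11 in RAW 264.7, higher by 1.43 ± 0.15 (2.69-fold, adjusted p = 1.1e-05). Epas1, its relative HIF-2 alpha, was at 0.80, 0.81, 0.77 and 0.83 against 0.21, 0.22, 0.12 and 0.07, higher by 0.65 ± 0.10, which did not pass under median centring or in the Cy5 channel alone (0.14). A second Epas1 probe was above background in Cy5 on all 3T3-L1 arrays and on none of RAW 264.7, at least 9.79-fold higher. Such a bound sets the mean log2 Cy5 of the brighter line, here 9.83, against the dimmest signal still above background on each array or the probe's own if higher, here 6.54, beside a measured mean of 6.42.

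Of the prolyl hydroxylases that read oxygen, Egln1, the main one, was above background in Cy5 on all 4 3T3-L1 arrays and on 1 of RAW 264.7. It read 1.47, 0.95, 1.69 and 1.71 against -1.32, -0.95, -0.62 and -1.67, the last 4 mostly dim, and was not tested. Egln3, itself hypoxia-induced, was at 0.16, 0.16, -0.07 and -0.04 in 3T3-L1 and 0.76, 0.86, 0.89 and 0.33 in RAW 264.7, a difference of -0.66 ± 0.12 (adjusted p = 0.00055).

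Among hypoxia-induced signals and mitochondrial genes, Vegfa, the vessel growth factor, was at 1.56, 1.44, 0.68 and 1.07 in 3T3-L1 and -0.28, 0.10, -0.04 and -0.37 in RAW 264.7, higher by 1.33 ± 0.16 (2.52-fold, adjusted p = 2.9e-05). Higd1a, a hypoxia-induced protein of the inner mitochondrial membrane, was at 2.09, 1.58, 1.75 and 1.72 against -0.22, -0.01, -0.09 and -0.37, higher by 1.96 ± 0.13 (3.88-fold, adjusted p = 3.1e-07). Kdm3a, a histone demethylase, gave 1.61 ± 0.15 over 7 arrays. All 3 separated the lines without overlap on the arrays measured.

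Apart from Ndrg1, described above, the other measured genes of that group differed by less than 2-fold between the lines. Adm, the vasodilator adrenomedullin, read -0.52, -1.35, -0.88 and -0.78 in 3T3-L1 and -0.49, 0.05, -0.31 and -0.56 in RAW 264.7, overlapping arrays with a difference of -0.55 ± 0.19 (adjusted p = 0.024). It did not pass without the cortisol array of either line, without the filter on dim probes, or with the untreated and cortisol-serotonin arrays only. Ankrd37 was higher by 0.38 ± 0.13 (adjusted p = 0.024), did not pass in 9 of the 17 alternatives and overlapped through the RAW 264.7 array labelled cortisol, at 0.68. Bnip3, an inducer of mitochondrial clearance, was at 0.30 ± 0.15 (adjusted p = 0.096); its probes gave 0.71 (adjusted p = 0.0033) and -0.11. Mxi1, a Myc antagonist, was not well above background in both channels on any array.

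The collagen-modifying enzymes were all higher in 3T3-L1. P4ha2, a catalytic subunit of prolyl 4-hydroxylase, read 2.15, 1.73, 1.73 and 1.82 in 3T3-L1 and -2.33, -1.81, -2.14 and -3.23 in RAW 264.7, higher by 4.24 ± 0.21 (18.8-fold, adjusted p = 2.8e-08). P4ha1, the other catalytic subunit, gave 1.40 ± 0.17 and 2.26 ± 0.13 from its 2 probes, each on 7 arrays. Plod2, the lysyl hydroxylase of collagen telopeptides, was at 1.37, 0.94, 0.85 and 1.08 against 0.15, 0.32, 0.20 and -0.04, higher by 0.90 ± 0.13, which did not pass under median centring (adjusted p = 0.060).

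**Figure D3:**
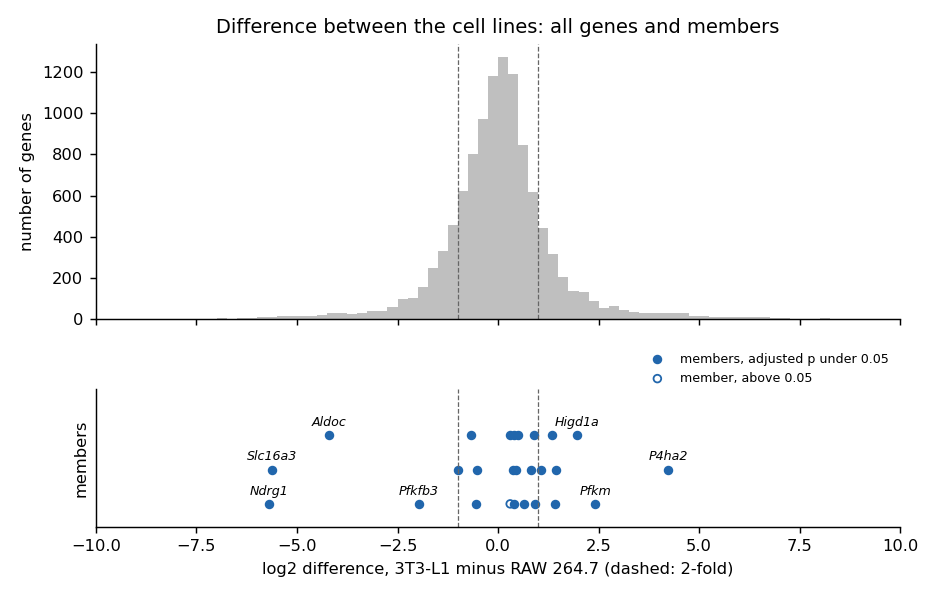
Number of genes by log2 difference between the lines (3T3-L1 minus RAW 264.7) for all 10995 measured genes, above, and the 26 members, below, spread vertically only for legibility; dashed lines mark 2-fold. More members lie to the right of 0 than to the left, with Ndrg1, Slc16a3 and Aldoc far left and P4ha2 far right.

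The other genes of these pathways, listed by textbook role, show where the split runs. Of 6 measured glucose and monocarboxylate transport genes beside the members, 2 were higher and 4 lower in 3T3-L1. The high-affinity glucose transporter Slc2a3 (GLUT3) differed by -3.52 ± 0.12 (11.5-fold lower), Slc16a6 by -2.95 ± 0.17 and Slc2a6 by -2.42 ± 0.12. Bsg, the chaperone that brings MCT1 and MCT4 to the membrane, was higher by 2.03 ± 0.15. Emb, a related chaperone, was above background only in 3T3-L1 (at least 7.09-fold).

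Of the 15 measured genes of glycolysis and gluconeogenesis beside the members, 5 were higher, 6 lower and 4 did not pass. Beside Hk3, Eno3 differed by -1.62 ± 0.14 and the pyruvate kinase gene Pkm by -1.02 ± 0.11 (2.03-fold lower), while Pcx, pyruvate carboxylase, was higher by 1.02 ± 0.23. All 10 genes of the pentose phosphate pathway, which makes NADPH and ribose, were measured, and 8 were lower in 3T3-L1, 4 of them at least 2-fold. The differences were -2.04 for Taldo1, -1.23 for Rpia, -1.15 for G6pdx, the entry enzyme, and -1.08 for Prps2. The list's median was -0.76, beside 0.04 for all genes.

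Of 10 measured genes of pyruvate entry, 3 were higher, 4 lower and 3 did not pass; the dehydrogenase subunits Pdhb and Dld differed by -1.72 and -1.58, and the kinase Pdk3 and the carrier subunit Mpc1 higher by 2.45 and 1.08. Pdk4, another such kinase, was above background only in 3T3-L1 (at least 9.08-fold). The Pdhb value averages 2 probes that disagreed in size. The probe with the larger difference read -2.72 to -1.84 in 3T3-L1 and was positive on all RAW 264.7 arrays. The other Pdhb probe read -0.592 to -0.261 in 3T3-L1 and -0.256 to -0.0909 in RAW 264.7, so its lines lay close. Of 37 measured genes of oxygen sensing and further hypoxia targets, 26 were higher and 5 lower, with a median of 0.89. Lox, which crosslinks collagen and is also among the fibroblast markers used here, was higher by 6.02 ± 0.12 and the lipase inhibitor Angptl4 by 5.19 ± 0.14, whereas Stc2 differed by -3.76 ± 0.11. Arnt, the partner of Hif1a, Vhl, which marks it for destruction, and Hif1an, the factor's inhibitor, were higher by 1.54, 1.42 and 1.16. They were chosen for their role after their values were seen. A second Arnt probe, measured on 7 arrays, lay closer between the lines. It read -0.41, 0.24, 0.06 and -0.12 in 3T3-L1 and -0.50, -0.36, -0.11 and -0.43 in RAW 264.7.

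**Figure D4:**
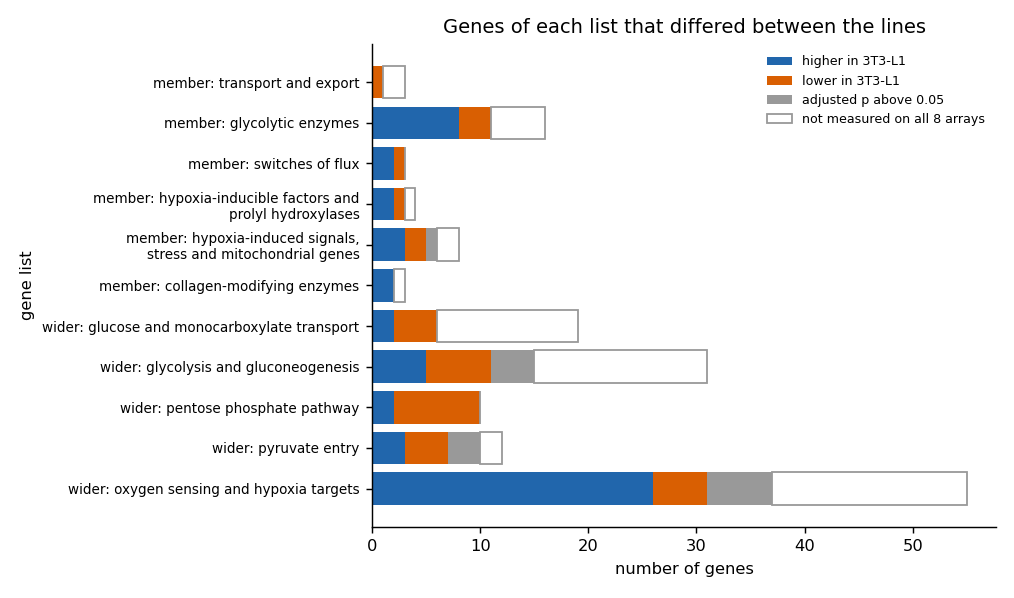
Number of genes in each group of members and in each list of further pathway genes that were higher (blue) or lower (orange) in 3T3-L1 at an adjusted p under 0.05, did not pass (grey) or were not measured on all 8 arrays (white). The pentose phosphate list is mostly orange, 8 of 10, and the oxygen sensing and hypoxia list mostly blue, 26 of 37 measured.

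The second comparison asks what each hormone did to these genes within a line. Few members reached 2-fold when each treated array was set against the untreated one of its line. One member on 1 array passed: Ndrg1 on the 3T3-L1 array labelled serotonin. With 1 array on each side there is no replicate spread and no test; the error given here is the one that the scanner software assigns to the 2 spots, and the 3 comparisons of a line share their untreated array.

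In 3T3-L1, none of 31 measured members reached 2-fold on the array labelled cortisol, where 0.416% of all genes were higher and 1.23% lower by that much. On the array labelled serotonin, none of 33 was 2-fold higher and 1 was lower, beside 0.515% and 0.728% of all genes. On the cortisol-serotonin array none of 32 did, beside 0.784% and 0.642%. In RAW 264.7 none did among 34 members on the array labelled cortisol (0.0377% of all genes higher, 0.0453% lower), 32 on that labelled serotonin (0.638% and 0.276%) or 34 on the cortisol-serotonin array (0.18% and 0.0749%).

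Ndrg1 stood at -0.26 ± 0.74 on the array labelled cortisol, -1.25 ± 0.82 on that labelled serotonin and -0.87 ± 0.78 on the cortisol-serotonin array of 3T3-L1, relative to untreated. All 3 were below 0 and none exceeded 2 times its error. In RAW 264.7, where the error was smaller, Ndrg1 was at 0.34 ± 0.30, 0.13 ± 0.29 and -0.20 ± 0.29. Slc16a3 in 3T3-L1 was at 0.04 ± 0.46, -0.59 ± 0.49 and -0.31 ± 0.48. On the 3T3-L1 array labelled serotonin all 10 measured macrophage markers were also below untreated, at -0.87 to -0.16 with a median of -0.46 (Fcer1g -0.87, Tyrobp -0.60); on the cortisol-serotonin array 9 of 10 were, with a median of -0.27. The part of those markers in the Ndrg1 and Slc16a3 values was not tested.

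Among the members, 8 values exceeded 2 times their scanner error: 4 on the 3T3-L1 array labelled cortisol, where 10.7% of all genes did, 1 on that labelled serotonin (6.98%) and 1 on the cortisol-serotonin array (6.42%). In RAW 264.7 there was 1 on the array labelled cortisol (0.43% of all genes), 0 on that labelled serotonin (2.27%) and 1 on the cortisol-serotonin array (1.4%). Vegfa, which has 2 probes, was at -0.89 ± 0.24 on the 3T3-L1 array labelled serotonin, -0.50 ± 0.24 on the cortisol-serotonin array and -0.13 ± 0.25 on that labelled cortisol. The 3T3-L1 array labelled cortisol held 4 more: Adm at -0.82 ± 0.31, Higd1a at -0.64 ± 0.28, Bnip3 at -0.59 ± 0.21 and Pfkfb3 at -0.59 ± 0.28. On that array all 7 measured hypoxia-induced signals, stress and mitochondrial genes were below untreated, with a median of -0.26, and all 3 collagen-modifying genes as well. In RAW 264.7 the 7 measured signal, stress and mitochondrial genes were all above untreated on the array labelled cortisol, with a median of 0.38, Ankrd37 highest at 0.60 ± 0.30, and on the cortisol-serotonin array Gapdh was at -0.31 ± 0.12. On the RAW 264.7 array labelled cortisol 9 of 11 measured fibroblast and pre-adipocyte markers were above untreated as well, with a median of 0.23, and on that labelled serotonin 9 of 10, with a median of 0.67. Their part in the values of the members was not tested.

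Other members stayed within 2-fold. P4ha2 in RAW 264.7 was at 0.53 ± 0.39 on the array labelled cortisol, 0.19 ± 0.40 on that labelled serotonin and -0.90 ± 0.46 on the cortisol-serotonin array. Eno2 in 3T3-L1 was at 0.56, 0.31 and 0.52, above untreated on all 3 arrays. On the RAW 264.7 cortisol-serotonin array the macrophage markers Spi1 and Itgam were at -1.21 and -1.05, with 10 of 13 markers below untreated, and their part in the values of that array was not tested.

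**Figure D5:**
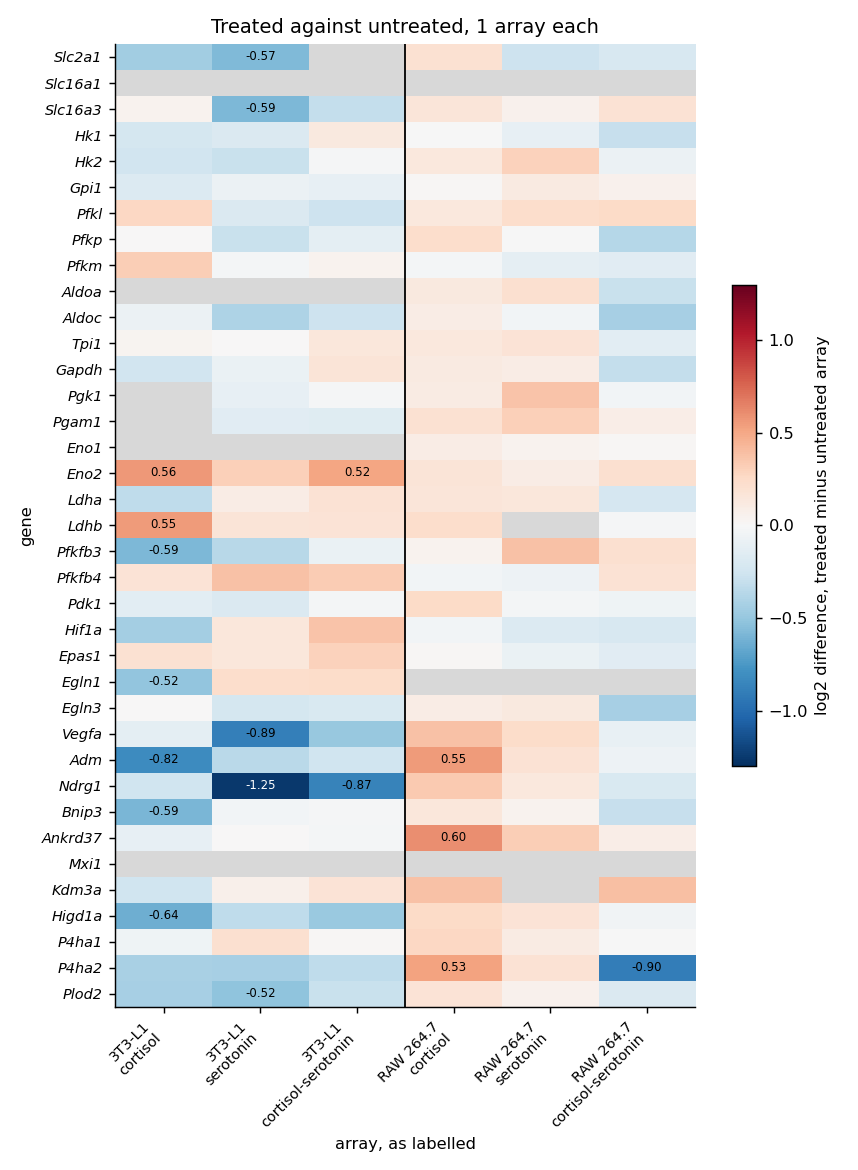
Log2 difference of each treated array from the untreated array of its line, for all 37 genes in columns named by label; red is above untreated, blue below, grey not measured, and values of 0.5 or more in size are printed. The only value past 2-fold is Ndrg1 at -1.25 on the 3T3-L1 array labelled serotonin.

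Over all members, the medians were -0.18, -0.15 and -0.02 in 3T3-L1 and 0.15, 0.11 and -0.08 in RAW 264.7 for the arrays labelled cortisol, serotonin and cortisol-serotonin. The medians of all genes lay between -0.04 and 0.02. On the RAW 264.7 array labelled cortisol, 30 of 34 members were above untreated, and on the cortisol-serotonin array 24 of 34 were below it. Median centring gave 24 members past 2-fold on the 3T3-L1 array labelled serotonin, where it moved the median of all genes to 1.07.

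A limma model that gives each line its own cortisol term and its own serotonin term, fitted over the 8 arrays, called no member among the 26. For cortisol it called 0% of all genes in 3T3-L1 and 0% in RAW 264.7, and for serotonin 0.109% in 3T3-L1 and 0% in RAW 264.7 (limma, adjusted p under 0.05). At an unadjusted p under 0.05, 1 member passed for cortisol in 3T3-L1 (Eno2), beside 2.79% of all genes, and 5 for serotonin in 3T3-L1, beside 13.2%. In RAW 264.7 none passed for cortisol or serotonin, beside 2.58% and 3.32% of all genes. The 5 were Ndrg1 at -0.93 ± 0.22 (adjusted p = 0.18), Slc16a3 at -0.50 ± 0.14 (0.23), Vegfa at -0.63 ± 0.21 (0.29), Hif1a at 0.48 ± 0.18 (0.32) and Pfkl at -0.36 ± 0.15 (0.37). Ndrg1 passed when any 1 of the 4 RAW 264.7 arrays was left out (limma, adjusted p of 0.0028 to 0.021), with the same value of -0.93, since the RAW 264.7 arrays enter its spread and not its value. P4ha2 in RAW 264.7 was at -0.62 ± 0.34 (adjusted p = 0.999) over all arrays. Without the untreated or the serotonin-labelled array of that line, P4ha2 was at -1.42. There the term is the difference of a single pair of arrays, cortisol-serotonin minus cortisol, so only its value is given. The share of all genes called in the fits without 1 array is not given here, so the Ndrg1 calls describe no trait of that gene. The difference of a hormone's effect between the lines called no member either, with 0 for cortisol (2.54% of all genes) and 4 for serotonin (7.49%) at an unadjusted p under 0.05.

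Of further pathway genes on treated arrays, Pdk4, the kinase that spares glucose and a known glucocorticoid target, was at 0.74 ± 0.32, 1.42 ± 0.35 and 1.53 ± 0.36 on the 3T3-L1 arrays labelled cortisol, serotonin and cortisol-serotonin. Ddit4, a hypoxia- and glucocorticoid-induced brake on mTOR, was at 0.63, 1.74 ± 0.32 and 0.33 in RAW 264.7 and at 0.77, 0.76 and -0.03 in 3T3-L1. Loxl2 was at -0.71, -1.14 and -1.31 in 3T3-L1. Slc16a6 was at -1.003 ± 0.27 in RAW 264.7 on the array labelled serotonin. That value averages probes that disagreed in size. A first probe read 1.52 on the untreated RAW 264.7 array and -0.18 on that labelled serotonin, and another 1.16 and 0.86. Pdp2 was at 1.03 ± 0.30 in 3T3-L1 on the array labelled cortisol, and Pcx at 1.05 ± 0.30 in 3T3-L1 on the cortisol-serotonin array. No pentose phosphate gene reached 2-fold on any treated array.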

How the data were processed

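RNA was measured on 8 two-colour Agilent arrays, 1 per cell line and treatment. The authors scanned them with Feature Extraction (10.5.1.1 by the labels and file headers) and deposited median signal and background intensities per spot and colour. The same deposited files hold the software's processed signal intensities and its log10 ratio with an error. The deposited value table equals that log10 ratio in all 43020 features (tolerance 0.5%). That ratio was fitted only as the alternative named scanner-processed signals below. Here, background was corrected by normexp (offset 50) and ratios by loess in limma 3.58.1 (R 4.3.3), leaving out control and outlier spots. Of 39429 probes, 27508 (69.8%) were named through RefSeq accessions (GRCm38.p6, names only). A gene's value averages those of its probes that both colours measured above background on each array compared. The lines were compared with a treatment term (3 residual degrees of freedom), hormones within line (2), both by limma with Benjamini-Hochberg adjustment over 10995 genes; treated arrays were set against untreated by a 2-fold change. Both models were tested on simulated data. Replicates of a line are 1 array per treatment, and nothing states separate cultures, so p-values measure the spread of these arrays; their number limits precision. The members and the lists were chosen with earlier results of these data known. All members are accounted for, with array values for those at least 2-fold different, isoforms and oxygen sensors; of each further list, up to 4 genes by line difference and up to 2 by treated change; 1 gene that this rule names is not reported here. Alternatives were scanner-processed signals, no background correction, median centring, Cy5 alone, no dim filter, the brightest probe, no treatment term and leaving out each array; outlier spots kept, probe-by-probe fits and the restriction to 4 arrays were added after seeing the data. No probe sequences were used here.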

Additional observations from a re-analysis of the deposited data

Results flagged for a closer look

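Among 27 members measured in all 6 comparisons of a treated with an untreated array, 2 were below untreated on all 3 treated arrays of 3T3-L1 and above untreated on all 3 of RAW 264.7. Of all 11040 genes measured in the 6 comparisons, 12.5% moved in opposite ways like this, in either direction, against 7.41% of the members. This opposite movement is what singled them out, and the difference was not tested for the 3 arrays together. Pfkfb3 was at -0.59, -0.36 and -0.083 in 3T3-L1 (cortisol, serotonin, cortisol-serotonin) and at 0.048, 0.38 and 0.21 in RAW 264.7, so the means differed by -0.55. Gpi1 was at -0.18, -0.075 and -0.11 against 0.015, 0.12 and 0.059, a difference of -0.19. The 3 values of a line share its untreated array, so a single untreated array that is high or low moves all 3 alike. For each hormone by itself, the difference between the lines did not pass for Pfkfb3 (adjusted p = 0.99 for cortisol and 0.90 for serotonin) or Gpi1 (0.98 and 0.96) in limma.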

How the results depend on the processing

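Of the 26 members compared between the lines, 13 stayed on the same side of the threshold and kept their direction under all 17 alternatives, and 3 members turned direction under 1 of them, the Cy5 channel alone: Gpi1 to -0.081, Pfkfb4 to -0.14 and Tpi1 to -0.24. Of 442 such values, 392 kept call and direction, 43 no longer passed, 4 newly passed and 3 turned. The count of members higher in 3T3-L1 was 17, with 7 under median centring and 11 in the Cy5 channel alone. Leaving out 1 array gave 14 to 18 higher and 7 to 9 lower of 26 to 29 members then measured. For these alternatives the share of all genes called is not given here, so the counts are set against each other only. Median centring without loess also raised the members at least 2-fold changed in 3T3-L1 to 5 (cortisol), 24 (serotonin) and 18 (cortisol-serotonin). The median of all genes then stood at 0.59, 1.07 and 0.99. Median centring also raised the members passing for serotonin in 3T3-L1 to 12. The share of all genes called in that setting is not given here, so these counts describe no trait of the members. In the Cy5 channel alone, 0 members were 2-fold changed on the 3T3-L1 array labelled serotonin and 2 on that of RAW 264.7. Leaving out 1 array gave 0 to 1 member passing for serotonin in either line, again without the share of all genes called. The cause of these changes was not tested. The no-filter and Feature Extraction settings kept the counts within 1.5 times. The line comparison pairs the lines by treatment label through its treatment term, and without that term 17 members were higher and 8 lower. Signal over background limits Ldhb in RAW 264.7, above background on 3 of 4 arrays. It also limits Ndrg1 in 3T3-L1, where the scanner error of a treated value was 0.74 to 0.82 against 0.29 to 0.30 in RAW 264.7. The same error was 0.57 to 0.59 for Aldoc in 3T3-L1 against 0.29 to 0.30 in RAW 264.7. For Slc16a3 it was 0.46 to 0.49 in 3T3-L1 against 0.21 to 0.30 in RAW 264.7.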
